A study of Arabidopsis thaliana with 42 samples.

Results

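The 46 genes described here encode the nuclear subunits of the photosynthetic light reactions and the small subunit of Rubisco in Arabidopsis thaliana. They were chosen by name and function, not by a threshold on their values. They comprise 9 genes of the major light-harvesting complex (LHCB1 to LHCB3), 5 genes of the minor antenna (LHCB4 to LHCB6), 6 genes of the photosystem I antenna (LHCA), 12 nuclear photosystem I core subunits (PSA), 5 extrinsic proteins of photosystem II, 5 other photosystem II proteins and the 4 RBCS genes. The deposited expression table held 34262 features. Each of the 46 was found in it by locus, and each was among the 31454 features that reached an RPKM of at least 1 in at least 2 libraries and were tested. The filter therefore removed none of them.

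RNA was sequenced from 14-day-old seedlings of ecotype Col-0, harvested at ZT-6, in 6 groups of 2 libraries. Wild type (WT) and vil1-1 mutant seedlings were grown at 22 °C or 27 °C. The arp6 mutant and the arp6 vil1 double mutant were sampled at 22 °C. The labels mention both long and short days without saying which applied to these libraries, and they do not name the arp6 allele. VIL1, which the annotation lists as VRN5, is a plant homeodomain protein that works with Polycomb complexes. ARP6 belongs to the SWR1 chromatin remodeller, which places the histone variant H2A.Z in nucleosomes. Another 30 samples of the series, from chromatin immunoprecipitation, were not analysed here. Nothing in the labels says that the libraries of a group came from separate cultures, so the p-values measure the spread between these libraries, which may be technical.

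As background, LHC proteins bind chlorophyll and carotenoids and pass excitation energy to the reaction centres. LHCB1, LHCB2 and LHCB3 form the trimers of the major complex of photosystem II, LHCB4 to LHCB6 link those trimers to the core, and LHCA1 to LHCA4 form the belt of photosystem I. Both cores are assembled from chloroplast-encoded and nuclear-encoded proteins, as is Rubisco, whose large subunit is made in the chloroplast and whose small subunit comes from the RBCS family. Transcripts of these genes are among the most abundant in green tissue and are known to respond to light, the circadian clock and signals from the chloroplast.

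The libraries differed in several properties that bear on the values below. Recovered depths ran from 52.5 M to 102.8 M reads. The arp6 libraries listed 6651 and 6566 features at 0, against 104 to 194 in the other 10 libraries. Chloroplast genes took 17.0% and 14.9% of all RPKM in the arp6 vil1 libraries, 4.07% and 4.61% in arp6, and 6.88% to 7.64% elsewhere. The median nuclear protein-coding gene stood at 1.94 and 1.79 RPKM in arp6 vil1, at 3.43 and 3.34 in arp6, and between 3.74 and 4.97 in the WT and vil1 libraries. ARP6 itself read 14.4 and 13.6 RPKM in WT at 22 °C, 0.398 and 0.207 in arp6 and 0.798 and 0.715 in arp6 vil1. VRN5 read 6.71 and 6.67 in WT at 22 °C, 5.13 and 5.38 in vil1 at 22 °C and 2.49 and 2.49 in arp6 vil1, which does not by itself check the vil1-1 genotype.

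Levels are given as RPKM, which divides the reads of a gene by its length in kilobases and by the library total. The values in the table corresponded to the whole span of each gene, introns included, so comparisons of level between genes are per base of gene span. Of the 46 genes, 36 were among the 100 features with the highest mean RPKM over the 12 libraries, and 24 were among the first 50. LHB1B2 (LHCB1.5, AT2G34420) ranked 1 among all features and CAB1 (LHCB1.3, AT1G29930) ranked 3. In WT at 22 °C CAB1 read 15279 and 15863 RPKM and LHB1B2 read 14665 and 15403, and these neighbours in the order overlapped. CAB2 (LHCB1.1, AT1G29920) read 8868 and 9465, CAB3 (LHCB1.2, AT1G29910) read 7824 and 8131, and LHB1B1 (LHCB1.4, AT2G34430) read 5796 and 5968, so the libraries of these LHCB1 genes did not overlap. The lowest gene of the 46 was LHCB4.3 (AT2G40100), a form of CP29, at 4.27 and 6.13 RPKM. It was counted from as few as 295 reads in a library, whereas the next lowest gene had at least 3846 and the highest count of a gene in a library was 1407999.

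**Figure D1:**
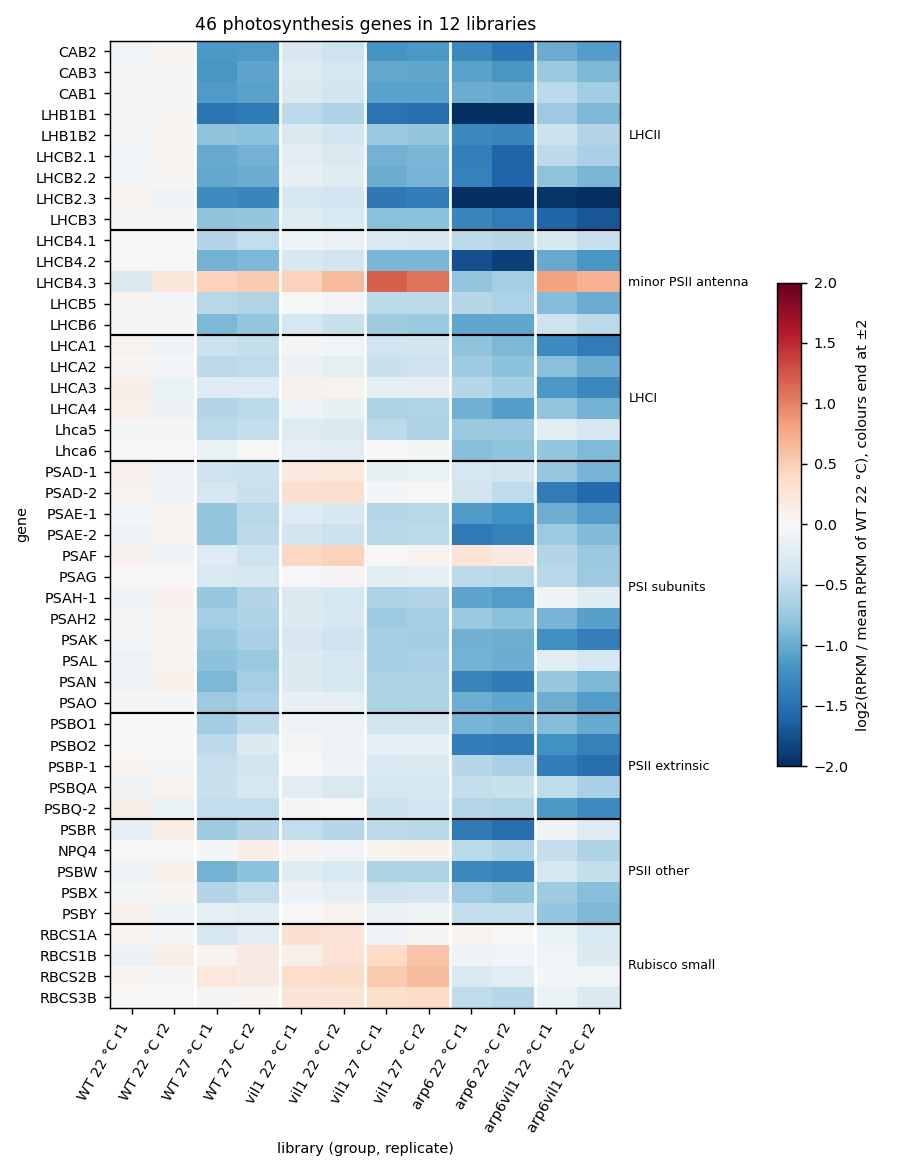
Levels of the 46 genes (rows, grouped by role) in the 12 libraries (columns, grouped by genotype and temperature), drawn as log2 of the RPKM over the mean RPKM of WT at 22 °C for that gene, with colours ending at 2 either way. Most antenna genes lie below WT 22 °C in both warm groups and in arp6, and RBCS rows stay closer to it. LHCB4.3, the lowest gene, stands apart with values above WT 22 °C in the warm groups, in vil1 at 22 °C and in arp6 vil1.

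Some of these values cannot be assigned to a single gene. CAB1, CAB2 and CAB3 are neighbours on chromosome 1, LHB1B1 and LHB1B2, and LHCB2.1 and LHCB2.2, are neighbours on chromosome 2, and RBCS1B, RBCS2B and RBCS3B are neighbours on chromosome 5. These are near-identical copies whose reads the authors' counting could split, so differences among them are uncertain. LHB1B2 overlaps a long non-coding RNA gene, AT2G08665, whose values were within 0.190% of its own, and PSAE-1 overlaps AT4G28755, within 1.98%. LHCB6 and PSAG also overlap AT1G05207 and AT1G55673, with values within 20.3% for LHCB6 and less alike for PSAG. The use of strand in counting was not given in the sources used here, so reads of overlapping genes cannot be told apart. The median gene span of the 46 was 1411.5 bases against 2078 over nuclear protein-coding genes, and 44 of the 46 were shorter than that median. An alternative below with the length trend removed corrects each library for the relation of its values to gene span.

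The first comparison asks how the warm temperature changed these genes in WT. At 27 °C 35 of the 46 genes were lower than at 22 °C, 1 was higher and 10 did not pass the test, which was limma on log2(RPKM + 1) with Benjamini-Hochberg adjustment over all 31454 features at 0.05. Over all features tested, 20.6% were called in this comparison, 3.61% lower and 16.9% higher. The median log2 change of the 46 genes was -0.57, and that of all features was 0.09. The libraries did not overlap and lay lower at 27 °C for 40 of the 46 genes. Such separation was not counted over all features, so this count has no background here. Where each library was given the same distribution of values by quantile normalization, 3 genes were called higher and 14 lower, against 6.53% and 8.04% of all features.

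The 9 genes of the major antenna were lower at 27 °C without exception. LHB1B1 fell furthest, from 5796 and 5968 RPKM at 22 °C to 2157 and 2207 at 27 °C. Its log2 change was -1.43 (SE 0.10, adjusted p = 0.000157). LHCB2.3 (AT3G27690), the least abundant LHCB2 gene, went from 686 and 627 to 274 and 265, a log2 change of -1.28 (SE 0.10, adjusted p = 0.000226). Neither gene had overlapping libraries, and the warm mean was 0.371 times that at 22 °C for LHB1B1 and 0.411 times for LHCB2.3. The tandem LHCB1 genes moved together: CAB1 read 7128 and 7441 at 27 °C, CAB2 read 4139.6 and 4179.7 and CAB3 read 3571 and 3838. Their log2 changes were -1.10 (SE 0.11), -1.14 (SE 0.11) and -1.11 (SE 0.11), which lie within their errors of each other. LHB1B2 fell from 14665 and 15403 to 8601 and 8472, a log2 change of -0.82 (SE 0.11, adjusted p = 0.00202), which became 0.076 under quantile normalization. LHCB3 (AT5G54270), a further trimer component, fell the least of the 9, from 3680.5 and 3797 to 2141 and 2176, a log2 change of -0.79 (SE 0.097, adjusted p = 0.00113). LHCB2.1 went from 3717 and 4017 to 1922 and 2000.5, and LHCB2.2 from 3619 and 3758 to 1808 and 1855. The major antenna was lower and past the threshold for each of its 9 genes also with the length trend removed, after rescaling to nuclear coding genes and under median centring, and for 3 of them under quantile normalization.

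Of the minor antenna genes, which encode CP29, CP26 and CP24, 4 were lower at 27 °C and LHCB4.3 was higher. LHCB6 (CP24, AT1G15820), the most abundant, fell from 2569 and 2681 to 1403 and 1532 RPKM, a log2 change of -0.84 (SE 0.10, adjusted p = 0.00106). The CP29 genes did not move as a block. LHCB4.2 (AT3G08940) fell from 1883 and 1915 to 989 and 1021, and LHCB4.1 (AT5G01530) from 1729 and 1763 to 1159 and 1247. Their log2 changes were -0.92 (SE 0.096, adjusted p = 0.000592) and -0.54 (SE 0.096, adjusted p = 0.00518). LHCB4.3 rose from 4.27 and 6.13 to 7.19 and 7.49, with a log2 change of 0.44 (SE 0.13, adjusted p = 0.0381), and its warm libraries both lay above those at 22 °C. This call was lost in 16 of 25 alternatives, with adjusted p up to 0.229, 11 of them with 1 library left out.

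In the photosystem I antenna 4 of 6 genes were lower at 27 °C. LHCA4 (AT3G47470), which with LHCA1 forms a pair of the belt, was the most abundant and fell from 4101 and 3512 to 2525 and 2608 RPKM, a log2 change of -0.56 (SE 0.12, adjusted p = 0.00858), which turned to 0.076 under quantile normalization. LHCA3 (AT1G61520) went from 2465 and 2085 to 1909.6 and 1910.1, and Lhca6 (AT1G19150), which takes part in the link between photosystem I and the NDH complex, from 95.7 ± 1.27 to 90.9 ± 5.75 (mean ± SD, n = 2). Neither passed, with log2 changes of -0.25 (SE 0.11, adjusted p = 0.155) and -0.074 (SE 0.082, adjusted p = 0.631).

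Among the 12 nuclear photosystem I subunits 10 were lower at 27 °C, with a median log2 change of -0.66. PSAN (AT5G64040), a lumenal subunit involved in docking plastocyanin, changed most, from 1781 and 2056 to 1024 and 1192 RPKM, a log2 change of -0.79 (SE 0.12, adjusted p = 0.00228). PSAE-2 (AT2G20260), on the ferredoxin side, fell from 536 and 585 to 324 and 391, a log2 change of -0.65 (SE 0.11, adjusted p = 0.00413). The genes that did not pass were PSAG (AT1G55670), the most abundant, and PSAF (AT1G31330), which also takes part in plastocyanin docking. PSAG went from 2543 and 2505 to 2051 and 2026 and PSAF from 1196 and 1059 to 944 and 843. Their libraries did not overlap and their log2 changes were -0.31 (SE 0.099, adjusted p = 0.0513) and -0.33 (SE 0.11, adjusted p = 0.055).

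Photosystem II showed the same direction for the 5 extrinsic proteins, which shield the oxygen-evolving cluster. PSBO1 (AT5G66570), the most abundant, fell from 2533 and 2555 to 1568 and 1763 RPKM, a log2 change of -0.61 (SE 0.10, adjusted p = 0.00405). Its paralogue PSBO2 (AT3G50820) and PSBQA (AT4G21280) fell by less, with log2 changes of -0.40 (SE 0.10, adjusted p = 0.0207) and -0.39 (SE 0.096, adjusted p = 0.0168). PSBO2 read 955 and 954 at 22 °C and 663 and 786 at 27 °C, and PSBQA went from 722 and 791 to 553 and 597. Of the other photosystem II proteins 3 of 5 were lower. PSBR (AT1G79040), which helps to hold the extrinsic proteins, went from 4810.2 and 5920.0 to 3262 and 3578, a log2 change of -0.64 (SE 0.13, adjusted p = 0.00803), and its libraries at 22 °C were further apart than those at 27 °C. PSBW (AT2G30570), a small subunit, fell from 1662 and 1922 to 932 and 1019, a log2 change of -0.87 (SE 0.11, adjusted p = 0.00114). NPQ4 (PsbS, AT1G44575), the sensor of energy-dependent quenching, read 394 and 397 at 22 °C and 389 and 435 at 27 °C, with overlapping libraries and a log2 change of 0.056 (SE 0.094, adjusted p = 0.778), which became -0.27 with the length trend removed and features under a mean RPKM of 5 left out. PSBY (AT1G67740) went from 922 and 816 to 761 and 750.3, a log2 change of -0.20 (SE 0.096, adjusted p = 0.19).

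The 4 Rubisco small subunit genes did not pass the test in WT. RBCS1A (AT1G67090), the most abundant at 22 °C, read 4376 and 4160.0 RPKM there and 3392 and 3643 at 27 °C. RBCS3B (AT5G38410) went from 3835 and 3882 to 3752 and 3969, RBCS2B (AT5G38420) from 2368 and 2261 to 2682 and 2602, and RBCS1B (AT5G38430) from 1268 and 1487 to 1428 and 1546. RBCS1A lay lower and RBCS2B higher at 27 °C in both libraries, while RBCS1B and RBCS3B overlapped. The log2 changes were -0.28 (SE 0.11, adjusted p = 0.107) for RBCS1A, 0.19 (SE 0.099, adjusted p = 0.226) for RBCS2B, 0.11 (SE 0.13, adjusted p = 0.638) for RBCS1B and near 0 for RBCS3B, whose adjusted p was 1. The 95% interval of the change was -0.52 to -0.034 for RBCS1A and -0.028 to 0.41 for RBCS2B. Under quantile normalization RBCS1B, RBCS2B and RBCS3B were called higher, with log2 changes of 0.55, 0.88 and 0.65, and under median centring 1 RBCS gene was called lower. As shares of the summed RBCS signal, RBCS1A went from 36.9% and 35.3% at 22 °C to 30.1% and 31.0% at 27 °C.

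**Figure D2:**
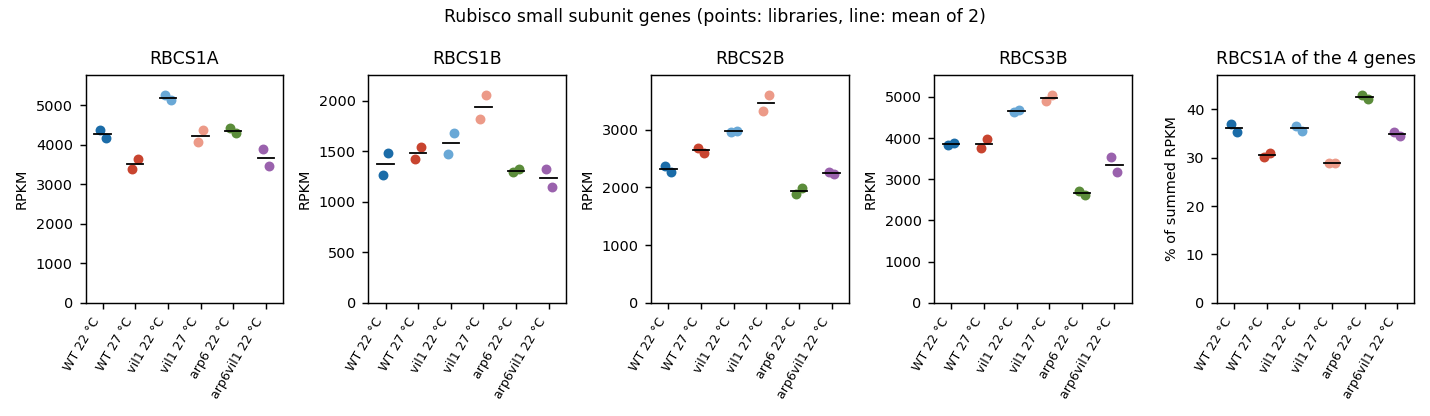
Level in RPKM (vertical axes, from 0) of RBCS1A, RBCS1B, RBCS2B and RBCS3B, and RBCS1A as a percentage of their sum, in the 6 groups, with 1 point per library and a line at the group mean. RBCS1A reads lower in the warm groups than at 22 °C, and RBCS2B and RBCS3B read lowest in arp6.

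Summed over the 46 genes, the share of nuclear protein-coding RPKM was 26.1% and 25.9% in WT at 22 °C and 17.2% and 17.3% at 27 °C. The major antenna alone went from 12.8% and 13.0% to 6.88% and 6.82%. In arp6 the 46 genes held 15.9% and 15.4%, and in arp6 vil1 21.8% and 20.3%. The order of these mutants depended on the denominator. Of all RPKM, chloroplast genes included, the 46 genes held 13.1% and 12.5% in arp6 and 12.1% and 10.8% in arp6 vil1. In WT at 22 °C they held 20.5% and 20.1% of all RPKM. The RBCS share of nuclear protein-coding RPKM in WT was 2.36% and 2.28% at 22 °C and 2.44% and 2.47% at 27 °C. The antenna genes together held 7.10 and 7.27 times the RBCS sum at 22 °C, and 3.97 and 3.88 times at 27 °C. In bulk seedlings fewer green cells and less of these transcripts per green cell cannot be told apart. The summed level of 8 root marker genes, all detected in each library, was 432 and 286 RPKM in WT at 22 °C and 952 and 769 at 27 °C. Most of that sum was PYK10, a glucosidase of root endoplasmic reticulum bodies, and of the 8 markers 1 was called higher and 1 lower. The summed level of 4 genes of dividing cells was 11.8 and 12.3 at 22 °C and 20.1 and 17.5 at 27 °C, with 1 of 4 called higher. The part of these differences in the result was not tested.

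**Figure D3:**
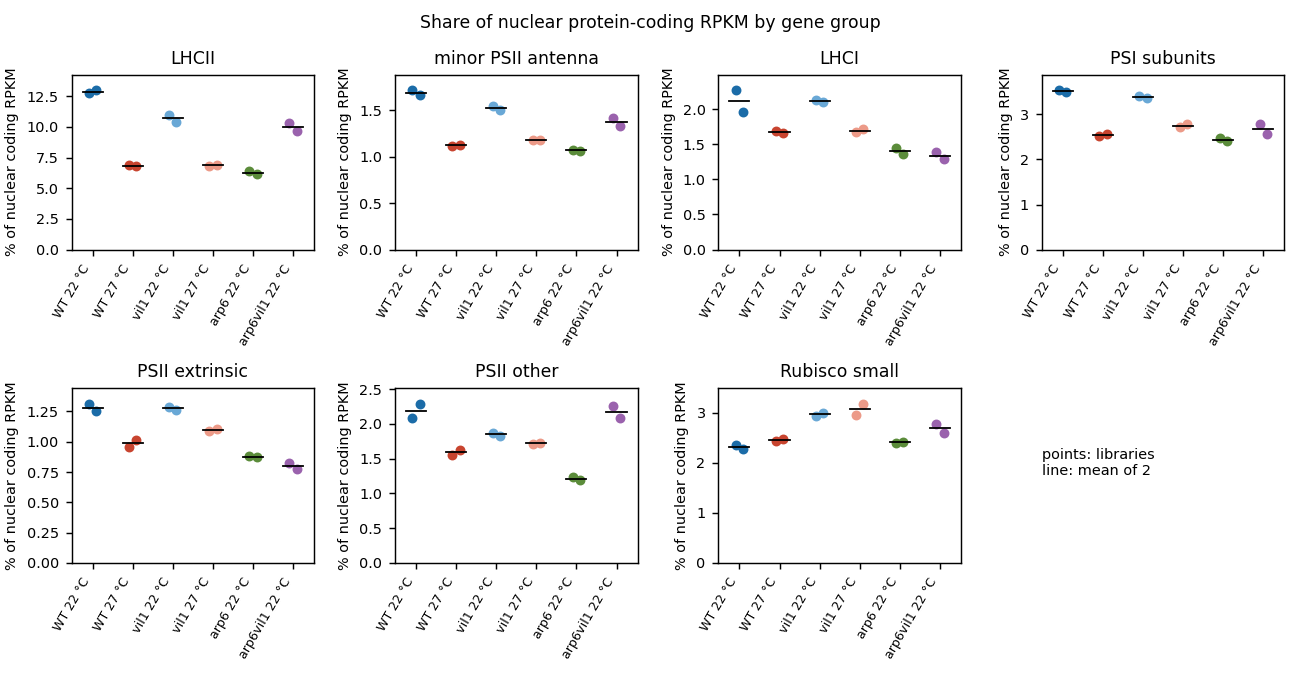
Share of the summed nuclear protein-coding RPKM (percent, vertical axis from 0) taken by each of the 7 gene groups, with 1 point per library in the 6 seedling groups and a line at the mean. The share of the major antenna is highest in WT at 22 °C, at 12.8% and 13.0%, while the RBCS share lies between 2.28% and 3.18% in all libraries.

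For the same temperature step in the vil1 mutant, 11 of 46 genes were lower at 27 °C and none higher by limma. An unadjusted p under 0.05 was reached by 36 of the 46 genes and by 5256 of the 31454 features. Over all features 2.4% were called, 0.461% lower and 1.94% higher. The median log2 change was -0.32 for the 46 genes and 0.11 for all features. With no overlap of libraries, 39 of the 46 genes were lower, a measure that was not counted over all features. The genes that passed were 8 of the 9 of the major antenna together with LHCB4.2, LHCB5 and PSAO. LHB1B1 fell from 4100.1 and 3841 to 2109 and 2069 RPKM, a log2 change of -0.93 (SE 0.10, adjusted p = 0.00162), and LHCB2.3 from 518 and 504 to 243 and 252, a log2 change of -1.04 (SE 0.10, adjusted p = 0.00082). CAB1 fell from 12728 and 12035 to 7401 and 7452, a log2 change of -0.74 (SE 0.11, adjusted p = 0.00955), and CAB2 and CAB3 changed by -0.79 (SE 0.11) and -0.72 (SE 0.11). The warm levels of these LHCB1 genes lay close to those of WT at 27 °C, while the levels at 22 °C lay below those of WT at 22 °C. LHCB3 and LHCB4.2 changed by -0.56 (SE 0.097) and -0.56 (SE 0.096). LHB1B2, the member of the major antenna that did not pass, went from 12356 and 11549.8 to 8989 and 8836, a log2 change of -0.42 (SE 0.11, adjusted p = 0.0932). CP26 (LHCB5, AT4G10340) fell from 2339 and 2268 to 1614 and 1629.6, and PSAO (AT1G08380), a photosystem I subunit at the antenna docking side, from 2049.6 and 1997 to 1455 and 1484.

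PSBR read 3834 and 3594 in vil1 at 22 °C and 3751 and 3641 at 27 °C, with overlapping libraries. No RBCS gene passed in vil1. RBCS1A went from 5247 and 5134 to 4079 and 4358, RBCS2B from 2965 and 2971 to 3315 and 3593, RBCS3B from 4628 and 4688 to 4902 and 5036 and RBCS1B from 1476 and 1679 to 1822 and 2054. RBCS1A lay lower in both warm libraries, as in WT, and the other RBCS genes lay higher. The count of genes called in this comparison was 2 without any one of the 4 vil1 libraries, where 0.474% to 0.661% of all features were called, and 23 when features under a mean RPKM of 5 were left out, where 7.45% were. Under quantile normalization it was 1 higher and 4 lower, against 1.2% and 1.06% of all features. The root marker sum was 435 and 460.4 RPKM in vil1 at 22 °C and 737 and 783 at 27 °C, with none of the 8 called, and the part of this in the result was not tested.

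The difference between the warm responses was tested in the same fit, as the change in vil1 minus the change in WT. None of the 46 genes passed by limma after adjustment, and 0% of all features did. Without adjustment 17 of the 46 genes had a p under 0.05, as did 3880 of the 31454 features. The difference was positive, that is, a less negative or more positive change in vil1, for 44 of the 46 genes. Its median was 0.25 against 0.02 over all features. These genes share the same libraries, so their common sign is no independent count. The difference for PSBR was 0.64 (SE 0.18, adjusted p = 0.372), with a 95% interval of 0.23 to 1.04. It was 0.52 (SE 0.15) for PSBW, 0.51 (SE 0.14) for LHCB6, 0.50 (SE 0.15) for LHB1B1 and 0.50 (SE 0.15) for PSAE-2. LHCA3 had a difference near 0 with an interval of -0.34 to 0.35. Neither an equal nor an unequal response was shown at the adjusted threshold. Without the first WT library at 22 °C 2 genes (4.35%) passed, against 5.73% of all features, a share near the background.

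**Figure D4:**
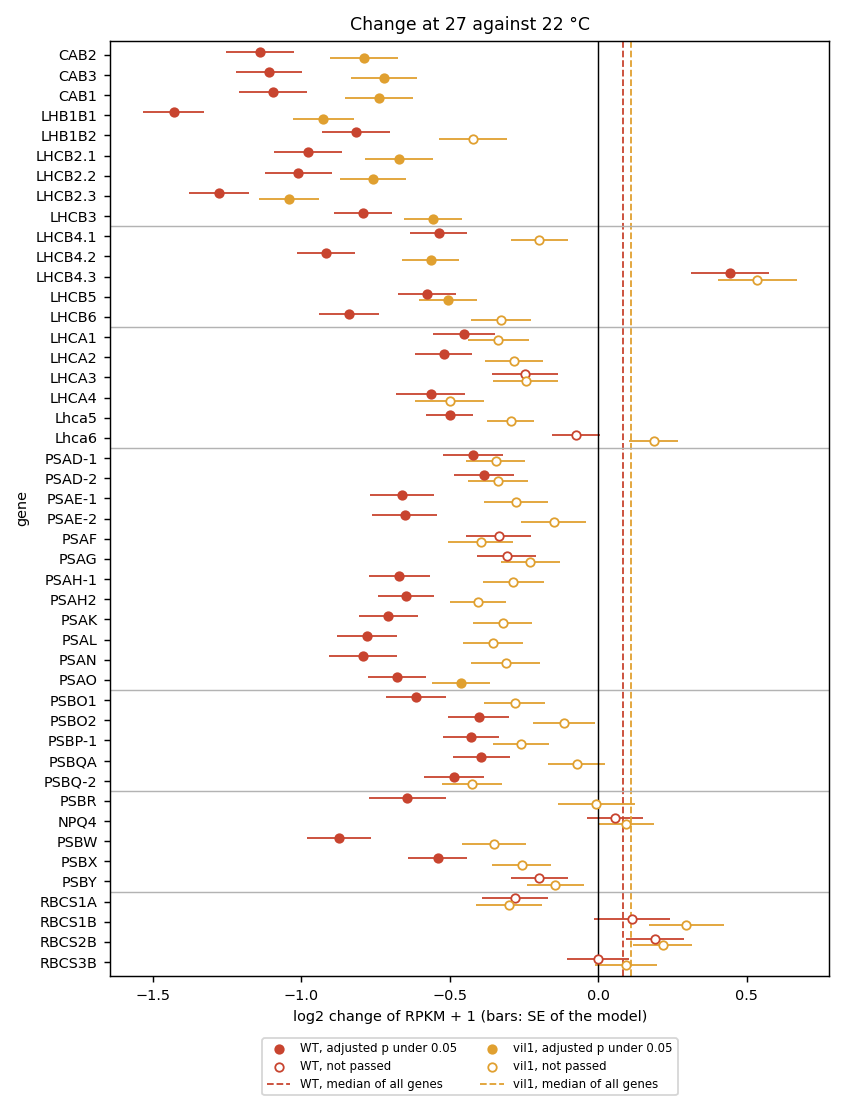
Log2 change of RPKM + 1 at 27 °C against 22 °C (horizontal axis) for each of the 46 genes (rows, by role) in WT and in vil1, with bars for the standard error, filled points for adjusted p under 0.05 and dashed lines at the median of all features. The WT points lie further left than the vil1 points for most genes, and the RBCS genes lie near 0.

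At a fixed temperature vil1 and WT differed for few of these genes. At 22 °C 1 of 46 passed: LHB1B1 read 4100.1 and 3841 RPKM in vil1 against 5796 and 5968 in WT, a log2 difference of -0.57 (SE 0.10, adjusted p = 0.0251). The call was lost in 8 of 25 alternatives, with adjusted p up to 0.198. Over all features 4.1% were called, 1.95% lower and 2.15% higher. An unadjusted p under 0.05 was reached by 28 of the 46 genes and by 9420 of the 31454 features. PSAF and PSBR just missed the threshold, in opposite directions, with log2 differences of 0.44 (SE 0.11, adjusted p = 0.0521) and -0.52 (SE 0.13, adjusted p = 0.0511). PSAF read 1508 and 1544 in vil1 and PSBR read 3834 and 3594. RBCS1A, RBCS2B and RBCS3B were higher in both vil1 libraries than in both WT libraries at 22 °C, with log2 differences of 0.28 (SE 0.11, adjusted p = 0.129), 0.36 (SE 0.099, adjusted p = 0.062) and 0.27 (SE 0.11, adjusted p = 0.126), none of which passed. The count was 17 (37% of the 46) without the first WT library at 22 °C, where 28.4% of all features were called. It was 3 without either WT library at 27 °C, where 5% and 4.98% were called, and 0 without either vil1 library at 22 °C, where 0.0954% and 0.118% were. It split into 6 higher and 14 lower when features under a mean RPKM of 5 were left out, against 10.4% and 7.48% of the remaining features. It was 3 higher and 1 lower under median centring (2.73% and 1.16% of all features), 2 and 1 after rescaling to coding genes (3.04% and 1.34%), and 1 and 4 under quantile normalization (2.54% and 2.26%). It was 6 and 0 with the length trend removed (3.96% and 1.07%), and 2 and 8 with a pseudocount of 5 (2.24% and 2.42%).

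At 27 °C none of the 46 genes differed between vil1 and WT by limma after adjustment. Of all features 0.922% were called in either direction, 0.337% higher and 0.585% lower. An unadjusted p under 0.05 was reached by 12 of the 46 genes and by 4524 of the 31454 features. All 4 RBCS genes were higher in both vil1 libraries than in both WT libraries, by log2 differences of 0.26 for RBCS1A, 0.38 for RBCS1B, 0.39 for RBCS2B and 0.36 for RBCS3B. The smallest adjusted p of these was 0.125, for RBCS2B. The summed RBCS share lay between 2.93% and 3.18% in the 4 vil1 libraries, above the range of 2.28% to 2.47% in the 4 WT libraries.

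The arp6 mutant was compared with WT at 22 °C. Of the 46 genes 43 were lower in arp6 than in WT and none was higher. In all 82.3% of features were called in this comparison, 61.8% lower and 20.6% higher, so the members' count stands against a high background. The median log2 difference was -0.90 for the 46 genes and -0.64 for all features. Over the 13695 features at a mean RPKM of at least 5, which all 46 genes reached, 6301 were called lower and 4542 higher. The median of those features was -0.17. Under quantile normalization the split of the 46 genes was 4 higher and 29 lower, against 31.1% and 28.9% of all features. With the length trend removed it was 9 higher and 20 lower, against 32.8% and 32.9%. The 9 genes of the major antenna had a median of -1.38 and were called lower also under median centring and after rescaling to coding genes. With the length trend removed 7 of the 9 were called lower, and under quantile normalization 6 were.

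LHCB2.3 had the largest difference of the 46, 85.7 and 73.0 RPKM in arp6 against 686 and 627 in WT, a log2 difference of -3.04 (SE 0.10, adjusted p = 1.58e-08). LHB1B1 followed with 1341 and 1302 against 5796 and 5968, a log2 difference of -2.15 (SE 0.10, adjusted p = 1.21e-07). The remaining LHCB1 genes moved less: LHB1B2 read 6147 and 6058, CAB2 3755 and 3317, CAB3 3816 and 3559 and CAB1 7852 and 7703. Their log2 differences were -1.300 (SE 0.11), -1.38 (SE 0.11), -1.11 (SE 0.11) and -1.001 (SE 0.11), and CAB1 had the smallest of the 9. Under quantile normalization, which gave CAB1 and LHB1B2 equal values in both groups, neither differed (adjusted p = 1 for both), and CAB3 did not pass (adjusted p = 0.482). LHCB3 read 1511 and 1417, a log2 difference of -1.35 (SE 0.097).

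The 5 minor antenna genes had a median log2 difference of -0.60 in arp6. That of all features was -0.64, and -0.17 at a mean RPKM of at least 5. The minor antenna split again between its CP29 genes. LHCB4.2 read 559 and 518 in arp6, a log2 difference of -1.82 (SE 0.096, adjusted p = 2.2e-07), whereas LHCB4.1 read 1205 and 1176, a difference of -0.55 (SE 0.096, adjusted p = 0.000343). LHCB4.3 read 3.01 and 3.26 and LHCB6 1278 and 1281, with differences of -0.57 (SE 0.13) and -1.04 (SE 0.10). The differences of LHCB4.1 and LHCB4.3 turned to 0.10 and 0.036 with the length trend removed. All 6 photosystem I antenna genes were lower, LHCA4 at 1965 and 1783, Lhca6 at 53.1 and 54.6 and LHCA3 at 1525 and 1412. Their log2 differences were -1.02 (SE 0.12), -0.82 (SE 0.082) and -0.63 (SE 0.11), and those of Lhca6 and LHCA3 came to 0.011 and 0.022 with the length trend removed.

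Photosystem I had 11 of 12 genes lower, against 61.8% of all features, with a median of -0.97. PSAE-2 read 211 and 219.9 and PSAN 763 and 716 in arp6, log2 differences of -1.37 (SE 0.11, adjusted p = 2.21e-06) and -1.37 (SE 0.12, adjusted p = 3.05e-06). PSAF did not pass and read 1368 and 1269.5, with both libraries above those of WT, a log2 difference of 0.23 (SE 0.11, adjusted p = 0.0752). PSAG read 1732 and 1713, a difference of -0.55 (SE 0.099) that became 0.46 with the length trend removed. In photosystem II all 10 genes were lower, with medians of -0.60 for the 5 extrinsic proteins and -0.76 for the 5 others. The median of all features was -0.64, and -0.17 at a mean RPKM of at least 5. PSBR read 2011 and 1879, PSBO2 365 and 358, PSBW 732 and 702 and PSBO1 1332 and 1299.7. Their log2 differences were -1.46 (SE 0.13), -1.40 (SE 0.10), -1.32 (SE 0.11) and -0.95 (SE 0.10). NPQ4, PSBY and PSBQA differed by less, -0.58 (SE 0.094), -0.47 (SE 0.096) and -0.46 (SE 0.096). NPQ4 read 273 and 257, PSBY read 624 and 626 and PSBQA read 543 and 555. Those of PSBY and PSBQA became positive, 0.41 and 0.31, with the length trend removed.

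The RBCS genes differed from each other in arp6. RBCS3B read 2705 and 2606 and RBCS2B 1883 and 1990.3, log2 differences of -0.54 (SE 0.11, adjusted p = 0.000735) and -0.26 (SE 0.099, adjusted p = 0.0323), whereas RBCS1A read 4417 and 4296 and RBCS1B 1291 and 1321, differences of 0.030 (SE 0.11, adjusted p = 0.808) and -0.073 (SE 0.13, adjusted p = 0.605). The RBCS2B call was lost in 9 of 24 alternatives. The directions depended on the scaling: all 4 RBCS genes were positive with the length trend removed and under quantile normalization, and 3 were positive under median centring and after rescaling to coding genes. The share of RBCS1A within the RBCS sum was 42.9% and 42.1% in arp6, against 36.9% and 35.3% in WT. Of the 8 root markers 3 were called higher and 1 lower in arp6, and their sum was 922 and 1042 RPKM. Of the 4 genes of dividing cells 2 were called higher, with a sum of 23.0 and 20.6. The part of these values, and of the features listed at 0 in arp6, was not tested.

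**Figure D5:**
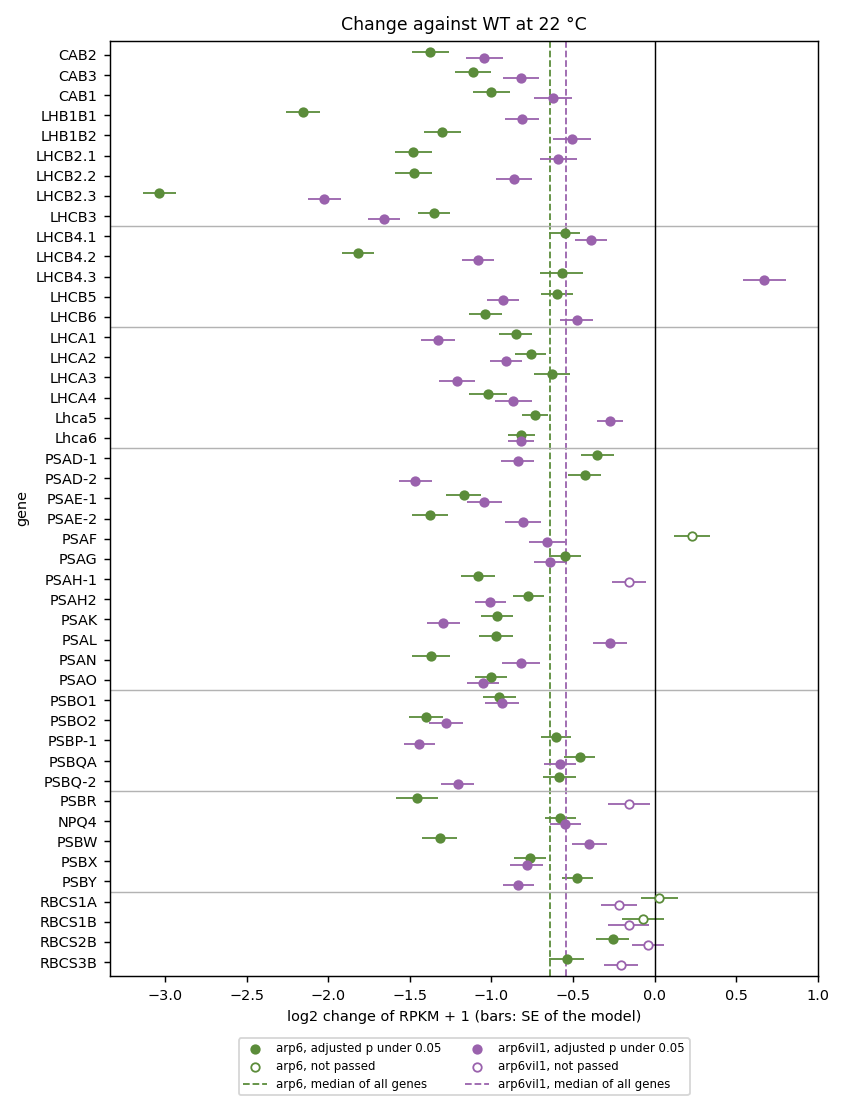
Log2 difference of RPKM + 1 against WT at 22 °C (horizontal axis) for each of the 46 genes (rows, by role) in arp6 and in arp6 vil1, with bars for the standard error, filled points for adjusted p under 0.05 and dashed lines at the median of all features. LHCB2.3 and LHB1B1 lie furthest left in arp6, and 8 of the 9 major antenna genes lie closer to 0 in the double mutant.

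In the arp6 vil1 double mutant 39 of the 46 genes were lower than in WT and 1, LHCB4.3, was higher, against 66.1% of all features called, 61.2% lower and 4.91% higher. Medians were -0.82 for the 46 genes and -0.54 for all features in the values as deposited. Over the 13695 features at a mean RPKM of at least 5 the median was -0.65, with 1150 called higher and 9820 lower. With the length trend removed 6 of the 46 genes were called higher and 27 lower, against 25.6% and 25.5% of all features. Under median centring, which moved the median of all features to 0.30, 15 were called higher and 9 lower, against 45.3% and 14.2%. Compared with vil1 at 22 °C, 37 of the 46 were lower and 1 was higher, against 58% of all features called, 50.8% lower and 7.16% higher. Of the 13695 features at a mean RPKM of at least 5, 1583 were called higher and 9493 lower in this comparison. After median centring the split of the 46 genes was 17 higher and 10 lower, against 48.8% and 18.6% of all features. After rescaling to coding genes it was 5 and 26, against 14.3% and 37.7%, and with the length trend removed 5 and 28, against 27.8% and 28.4%.

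Compared with arp6, the double mutant had 19 of the 46 genes higher and 12 lower, while 79.1% of all features were called, 41.1% higher and 38% lower. Of the members 41.3% were called higher, close to this background, and 26.1% lower, below it, and both medians were 0.12. Over the 13695 features at a mean RPKM of at least 5, which all 46 genes reached, 3685 were called higher and 7594 lower. The median of those features was -0.43, below that of the 46 genes. The split of the 46 genes was 11 higher and 28 lower under quantile normalization, against 32.3% and 32.6% of all features. It was 34 and 3 under median centring, against 59% and 26.5%. It was 23 and 8 after rescaling to coding genes, against 50.4% and 33.5%, and 11 and 19 when the length trend was taken out, against 34.3% and 33.9%. The roles divided: 8 of the 9 genes of the major antenna were higher, and LHCB3 was lower. LHB1B1 read 3545 and 3169 RPKM in the double mutant, a log2 difference from arp6 of 1.34 (SE 0.10, adjusted p = 7.57e-07), and LHCB2.3 read 168 and 153, a difference of 1.01 (SE 0.10). LHB1B2 read 11153 and 10043 and differed by 0.79 (SE 0.11), or by -0.75 under quantile normalization. CAB1 read 10674 and 9582, CAB2 read 4602 and 4282 and CAB3 read 4754 and 4289, with differences of 0.38 (SE 0.11), 0.33 (SE 0.11) and 0.29 (SE 0.11) that turned to -0.096, -0.092 and -0.19 with the length trend removed and to -1.72, -0.64 and -0.79 under quantile normalization. LHCB3 read 1228 and 1138, a difference of -0.31 (SE 0.097) that turned to 0.17 under median centring. Of the 9 genes, 5 were positive with the length trend removed and 4 under quantile normalization.

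Among the other roles PSBR, PSBW, LHCB4.2 and LHCB4.3 were higher in the double mutant than in arp6. PSBR read 5079 and 4506, a log2 difference of 1.299 (SE 0.13, adjusted p = 5.95e-06), and LHCB4.3 read 9.11 and 8.43, a difference of 1.24 (SE 0.13, adjusted p = 9.99e-06). PSBW read 1423 and 1287 and LHCB4.2 946 and 848, and both lay above arp6 in both libraries. PSAE-2 read 339 and 302, PSAN read 1137 and 1033 and LHCB6 read 1976 and 1802, differences of 0.57 (SE 0.11), 0.55 (SE 0.12) and 0.56 (SE 0.10). PSAF was lower at 750.3 and 675 and LHCA3 at 1026 and 935, differences of -0.89 (SE 0.11, adjusted p = 3.11e-05) and -0.58 (SE 0.11, adjusted p = 0.000701). RBCS3B read 3538 and 3166, a difference of 0.33 (SE 0.11) that became -0.89 under quantile normalization, and RBCS1A read 3886 and 3450.2, a difference of -0.25 (SE 0.11, adjusted p = 0.0574). Of the 8 root markers 4 were called lower in the double mutant than in arp6, with a sum of 276 and 250.03 RPKM, and all 4 genes of dividing cells were called lower, with a sum of 6.88 and 6.49. Of a list of 7 chloroplast genes all 7 were lower in arp6 than in WT, against 61.8% of all features, and all 7 were higher in arp6 vil1 than in WT, against 4.91%. The part of these values and of the chloroplast share in the result was not tested.

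The effect of ARP6 loss differed between vil1 and WT plants for 28 of the 46 genes, 19 with a positive difference and 9 with a negative one, against 75.2% of all features, 42.5% positive and 32.7% negative, so the count is not above background. The medians were 0.16 and 0.30. Over the 13695 features at a mean RPKM of at least 5, 3870 were called positive and 6948 negative, with a median of -0.41. The split of the 46 genes was 13 positive and 26 negative under quantile normalization, against 30% and 30.2% of all features. It was 12 and 19 with the length trend removed, against 31.4% and 31.3%, and 33 and 3 under median centring, against 56.1% and 25.9%. LHB1B1 had the largest difference, 1.91 (SE 0.15, adjusted p = 1.52e-06), followed by PSBR with 1.82 (SE 0.18) and LHCB2.3 with 1.37 (SE 0.14). PSAF had the most negative one, -1.33 (SE 0.15, adjusted p = 2.87e-05). These contrasts share their control libraries with those above.

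Paralogues of the same subunit held different ratios in the groups. PSAH2 (AT1G52230) stood at 1.54 to 1.75 times PSAH-1 (AT3G16140) in the WT and vil1 libraries, at 2.09 and 2.05 times in arp6 and at 0.923 and 0.930 times in arp6 vil1, where the order was reversed. LHCB4.1 stood at 0.918 and 0.921 times LHCB4.2 in WT at 22 °C, at 1.17 and 1.22 times at 27 °C, at 2.16 and 2.27 times in arp6 and at 1.47 and 1.501 times in arp6 vil1. PSBO1 stood at 2.24 to 2.68 times PSBO2 in WT and vil1, at 3.65 and 3.63 times in arp6 and at 3.40 and 3.38 times in arp6 vil1. LHCB2.1 stood at 5.42 to 8.25 times LHCB2.3 in WT and vil1, at 17.6 and 17.5 times in arp6 and at 15.9 and 16.1 times in arp6 vil1. PSAD-1 (AT4G02770) stood at 2.26 and 2.23 times PSAD-2 (AT1G03130) in arp6 vil1, above the other groups. A ratio within a library does not depend on its depth. With 2 libraries a group, the smallest two-sided p of an exact permutation test is 0.333, so none was given for these ratios.

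Genes of the surrounding pathway were described from lists chosen by function. The electron transport list held 13 genes, the Calvin cycle list 17, the LHC relatives 8, the photosystem II assembly factors 8, the insertion pathway 5 and the regulators 13. In WT at 27 °C, where 16.9% of all features were called higher and 3.61% lower, 2 electron transport genes were higher and 4 lower, with FD1, a ferredoxin, at 0.59 (SE 0.10, adjusted p = 0.00507). The Calvin cycle genes had 5 higher and 3 lower, among the higher ones RCA, Rubisco activase, at 0.71 (SE 0.17) and PRK, phosphoribulokinase, at 0.59 (SE 0.17). The PRK call was lost in 11 of 25 alternatives and the RCA call in 5. Both had WT libraries far apart at 22 °C, 139 and 100 RPKM for PRK and 712 and 490 for RCA. Of the photosystem II assembly and accessory genes 2 of 8 were lower, PSBTN and PSB27, and PSBTN went from 1151 and 1311 to 591 and 659, a log2 change of -0.98 (SE 0.11, adjusted p = 0.000698). Among the insertion genes CPSRP54, of the signal recognition particle that carries LHC proteins to the thylakoid, changed by 0.88 (SE 0.17), and CAO, which the annotation gives for cpSRP43, by -0.38 (SE 0.10). The LHC relatives had 1 higher and 3 lower, with ELIP1, an early light-induced protein, at 0.64 (SE 0.10).

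Of the 13 regulators 8 were higher and 3 lower in WT at 27 °C. GPRI1 (GLK1) and GLK2, transcription factors that activate LHC genes, were lower: GPRI1 read 42.5 and 43.8 at 22 °C and 29.5 and 29.5 at 27 °C, and GLK2 went from 79.9 and 87.0 to 50.8 and 63.9. Both warm libraries lay below both at 22 °C for each. GUN5, the H subunit of magnesium chelatase, went from 63.6 and 22.5 to 166 and 81.7, a log2 change of 1.59 (SE 0.42, adjusted p = 0.0241), with libraries far apart at 22 °C. The sigma factors SIGE, SIG2 and SIGA, which direct the chloroplast polymerase, were higher by 0.98, 0.83 and 0.81. SIGE also had libraries far apart in WT at 22 °C, at 19.5 and 9.25. The calls of SIGA, SIGE, GUN5 and SIG2 were lost in 20, 9, 7 and 5 of 25 alternatives.

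In vil1 at 27 °C, with 1.94% and 0.461% of all features called, 2 electron transport genes (FD1 and PGRL1B), 1 relative (ELIP1) and no Calvin cycle gene were higher, and GPRI1 was the 1 regulator called, with 45.0 and 43.9 at 22 °C and 27.4 and 26.0 at 27 °C. In vil1 against WT at 22 °C, where 2.15% of all features were called higher and 1.95% lower, 4 Calvin cycle genes were higher. These were AT3G60750, a transketolase, RCA, PRK and SBPASE, with log2 differences of 1.23 (SE 0.20), 0.99 (SE 0.17), 0.93 (SE 0.17) and 0.65 (SE 0.15). ELIP2, CPSRP54, GUN1 and SIGF were also higher and PSBP-2 was lower. The calls of SBPASE, SIGF, GUN1 and CPSRP54 were lost in 17, 19, 13 and 12 of 25 alternatives, and that of PSBP-2 in 18 of 23. Those of RCA, AT3G60750 and PRK were lost in 6, 5 and 5 of 25. The WT libraries at 22 °C were far apart for AT3G60750 (110 and 69.8 RPKM), RCA (712 and 490), PRK (139 and 100), SBPASE (198 and 132) and CPSRP54 (15.7 and 9.59).

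In arp6, against the 61.8% of features called lower and 20.6% higher, 10 of 13 electron transport genes were lower and 2 higher, 6 Calvin cycle genes were lower and 5 higher, and 7 of 8 photosystem II assembly genes were lower. FNR2, a ferredoxin reductase, and PGR5, of cyclic electron flow, differed by 1.37 (SE 0.29) and -1.41 (SE 0.10). The WT libraries of FNR2 at 22 °C were far apart, at 228 and 94.5 RPKM. PSBP-2 and PSB27 differed by -1.48 (SE 0.10) and -1.46 (SE 0.13). The insertion genes went the other way, with 4 of 5 higher, CPSRP54 by 1.32 (SE 0.17), and of the regulators 6 were higher and 5 lower. GLK2 read 31.2 and 27.5 in arp6 and 96.5 and 86.7 in arp6 vil1, and GPRI1 read 54.6 and 55.0 in arp6 and 36.1 and 31.4 in arp6 vil1. GNC and GUN4 differed from WT in arp6 by -1.54 (SE 0.18) and -1.54 (SE 0.095). In arp6 vil1 compared with arp6, where 41.1% and 38% of features were called, the Calvin cycle genes had 5 higher and 10 lower and the regulators 3 higher and 9 lower, GUN5 and SIG2 by -3.37 (SE 0.42) and -3.21 (SE 0.17).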

How the data were processed

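The deposited table held RPKM values, made by the authors for 34262 features in 12 RNA-seq libraries. Total RNA was extracted with TRIzol, treated with DNase I and made into libraries with an NEB kit, per the labels' protocols. The submitters' processing notes name FastQC, HISAT2, Bowtie2, SAMtools, bedtools, edgeR and the TAIR10 build, without tying them to a data type. Strand and counting settings were not given in the sources used here.

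The RPKM values were whole multiples of 1 read when multiplied by the gene span less 1 base, for 32532 of 32548 features with a known span, within 0.02 reads. This gave depths of 52.5 M to 102.8 M reads. Names and neighbours came from the RefSeq annotation, whose build differs, so no coordinates were used. No count was tested.

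The fit used limma 3.58.1 in R 4.3.3 on log2(RPKM + 1), with 1 mean per group over the 12 libraries and a mean-variance trend, for 31454 features at RPKM of at least 1 in at least 2 libraries. The pseudocount understates changes of low genes. Calls were at an adjusted p under 0.05 (Benjamini-Hochberg over all features). The method was tested on simulated data. Genes with full values were, by a rule, the most abundant gene of each role and those with the largest and smallest change in WT at 27 °C and in arp6, all LHCB1 and RBCS genes, and up to 4 called genes per pathway list. LHCB5, PSAO, LHCB2.1, LHCB2.2 and the paralogue pairs were added after their values were seen. The values of GPRI1 and GLK2 in WT at 27 °C, in arp6 and in arp6 vil1 also lie outside this rule. Their changes in those comparisons were not followed through the alternatives. The 46 genes and the lists were chosen with earlier results of these data known. Alternatives changed the pseudocount, filter, scaling (quantile, median, nuclear coding genes), samples fitted, gene length trend, replicate block and libraries left out. The length trend with a mean RPKM of at least 5, and crossed replicate numbers, were chosen after seeing the data.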

Additional observations from a re-analysis of the deposited data

Results flagged for a closer look

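The effect of losing ARP6, that is arp6 minus WT in WT plants and arp6 vil1 minus vil1 in vil1 plants, differed between the vil1 and WT backgrounds for 28 of the 46 genes by limma's test of the difference itself, at an adjusted p under 0.05. Over all features 75.2% were called in this test. Among the genes followed individually the difference was positive, a smaller decrease or a larger increase in the vil1 background, for LHB1B1 at 1.91 (log2), PSBR at 1.82, LHCB2.3 at 1.37, PSBW at 1.19, LHB1B2 at 1.13 and LHCB4.2 at 1.09. It was 0.96 for both PSAE-2 and LHCB6, 0.86 for PSAN, 0.75 for LHCB4.3, 0.71 for CAB1, 0.70 for CAB2 and 0.60 for CAB3. It was negative for PSAF at -1.33, LHCA3 at -0.67, RBCS1A at -0.53 and PSBY at -0.41. The values of CAB1, CAB2, CAB3 and LHB1B2 were negative under quantile normalization. With 2 libraries a group no single library could be examined as standing apart from its group.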

How the results depend on the processing

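The counts are of the 46 genes called. Of the 31454 features, a minimum absolute log2 change of 1 left 422 called for WT warm, 137 for vil1 warm and 140 for vil1 against WT at 22 °C. It left 12490 for arp6 against WT and 7123, 10323 and 6828 for arp6 vil1 against WT, arp6 and vil1. For the difference of ARP6 effects it left 14490. With the same minimum the counts of the 46 genes were 6 for WT at 27 against 22 °C, 1 for vil1 at 27 against 22 °C and 0 for vil1 against WT at 22 °C. They were 20 for arp6 against WT, 14 for arp6 vil1 against WT, 5 against arp6, 10 against vil1 and 10 for the difference of ARP6 effects. The WT warm count of 36 was 17 under quantile normalization, where 4583 of 31454 features were called, and 14 with only the groups compared fitted. The vil1 warm count of 11 was 4 with no filter on low values, 23 at a mean RPKM of at least 5, 5 under quantile normalization, 19 under median centring, 29 with only the groups compared, 21 with the length trend removed and 33 with the length trend removed at a mean RPKM of at least 5. The count of 1 for vil1 against WT at 22 °C was 10 with a pseudocount of 5, 0 with no filter, 20 at a mean RPKM of at least 5, 5 under quantile normalization, 4 under median centring, 3 after rescaling to coding genes, 0 with only the groups compared, 0 with the WT and vil1 libraries alone, 6 with the length trend removed and 10 with both length and filter changed. The count of 0 at 27 °C was 2 with a pseudocount of 5, at a mean RPKM of at least 5, under median centring and with the length trend removed, 1 under quantile normalization and 6 with length and filter changed. The arp6 vil1 against WT count of 40 was 24 under median centring, where 18724 of 31454 features were called. For vil1 warm 652 of 34262 features were called with no filter and 1020 of 13695 at a mean RPKM of at least 5. For vil1 against WT these were 690 and 2450 at 22 °C, and that mean gave 263 at 27 °C. Quantile normalization called 711, 1510 and 354 features in these comparisons in turn, and median centring 629, 1224 and 389. A pseudocount of 5 called 1467 at 22 °C and 387 at 27 °C. The cause of these shifts was not tested. Fitting only the groups compared uses fewer libraries, and quantile normalization gives the top-ranked features equal values in each library. The part of these properties in the shifts was not tested either. Where no number over all features is given, a shift cannot be read as one of the 46 genes alone.

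Leaving out each library in turn gave 26 to 35 for WT warm, 2 to 15 for vil1 warm, 0 to 2 for their difference, 0 to 17 for vil1 against WT at 22 °C and 0 to 1 at 27 °C, 42 to 43 for arp6, 37 to 40 for arp6 vil1 against WT, 27 to 32 against arp6, 32 to 38 against vil1 and 25 to 29 for the difference of ARP6 effects. Same-numbered libraries did not deviate together across the groups as a whole (r from -0.249 to 0.220 over 15 pairs of groups, 1 over 0.1). The pair over 0.1 was WT at 22 °C with WT at 27 °C, whose same-numbered libraries also had like depths, 75.0 M and 75.0 M, and 61.6 M and 61.5 M. The replicate block was shared by all groups, and a pairing of the WT groups alone was not tested. With the replicate block the counts were, in the same order, 36, 10, 0, 1, 0, 42, 39, 29, 36 and 28, and the vil1 against WT count at 27 °C was 0 with the numbers crossed.

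Of 8054 values of single genes under the alternatives, 7288 kept direction and side of the threshold, 503 lost the call, 205 gained one and 58 changed sign. With the length trend removed, arp6 against WT gave 0.10 for LHCB4.1, 0.036 for LHCB4.3, 0.022 for LHCA3, 0.011 for Lhca6, 0.46 for PSAG, 0.31 for PSBQA, 0.41 for PSBY, 0.38, 0.64 and 0.13 for RBCS1B, RBCS2B and RBCS3B and 0.077 for SEP1; arp6 vil1 against arp6 gave -0.092, -0.19 and -0.096 for CAB2, CAB3 and CAB1, and the difference of ARP6 effects gave -0.11 for CAB3, -0.42 for Lhca6 and -0.37 for PSBQA. With the filter of a mean RPKM of 5 as well, NPQ4 was -0.27 in WT warm, PSAG 0.20, PSBQA 0.10, PSBY 0.20 and RBCS2B 0.43 in arp6, and RBCS1B 0.39 in arp6 vil1 against arp6. Median centring gave 0.30 and 0.12 for RBCS1B and RBCS2B in arp6, 0.17 for LHCB3, 0.47 for Lhca6, 0.39 for PSAG, 0.35 for PSBQA, 0.11 for PSBY and 0.39 for RBCS1B in arp6 vil1 against arp6, and 0.33 for LHCB3 in the difference. Rescaling to coding genes gave 0.00066 for RBCS2B in arp6. Quantile normalization gave 0.076 for LHB1B2 and for LHCA4 in WT warm, 0.053 for LHCA3, 0.19 for PSAG and 0.37, 0.53 and 0.23 for RBCS1B, RBCS2B and RBCS3B in arp6. It gave -0.64, -0.79, -1.72 and -0.75 for CAB2, CAB3, CAB1 and LHB1B2 in arp6 vil1 against arp6, with -0.65 for LHCA4, 0.15 for Lhca6, -0.38 for PSBO1, -0.34 for NPQ4, -0.60 for RBCS2B and -0.89 for RBCS3B. In the difference it gave -0.64, -0.91, -1.72 and -0.75 for the same 4 LHCB1 genes, -0.76 for LHCA4, -0.30 for PSBO1, -0.37 for NPQ4 and -1.34 for RBCS3B.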
